A study of Mus musculus with 4 samples.

Results

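Cytosolic heat shock proteins were examined as 10 genes of the 55573 in a ribosome profiling (Ribo-seq) table of primary mouse myoblasts: the HSP70 chaperones Hspa8, Hspa1a and Hspa1b, the HSP110 chaperones Hspa4 and Hsph1, the HSP90 chaperones Hsp90aa1 and Hsp90ab1, the small heat shock protein Hspb1, the J-domain cofactor Dnajb1 and the transcription factor Hsf1. The members were taken by gene name, and all 10 had a row. Ribo-seq sequences the mRNA fragments that ribosomes shield from nuclease, so its values follow the amount of mRNA and its occupancy by ribosomes together.

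The myoblasts, which are the cultured progeny of muscle stem cells, came from hind-limb muscle of 3-week-old mice and had grown in medium with FGF until day 2. The first group, labelled WT, had 2 libraries. The second group, labelled eIF5A knockout (KO), also had 2. By the methods of the study, KO mice were Pax7CreERT2/+;eIF5A f/f mice given tamoxifen, so that the deletion is limited to cells that expressed Pax7 and their progeny. The controls were described in more than one way, as Pax7CreERT2/+ mice, as Pax7+/+;eIF5A f/f mice and as WT littermates, so whether they carried Cre or the floxed allele is not settled here. All cells of both groups received cycloheximide to hold ribosomes in place. No source said whether the 2 libraries of a group came from separate mice, so the p-values measure the spread between these libraries, which may be technical.

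Cytosolic chaperones help proteins to fold. HSP70 binds short hydrophobic stretches of unfolded chains and lets go when it exchanges nucleotide. J-domain proteins such as Dnajb1 bring clients to it and start its ATP hydrolysis, and HSP110 proteins speed the exchange. HSP90 acts later, on nearly folded kinases and receptors, and small heat shock proteins such as Hspb1 hold unfolded protein without using ATP. Hspa8 and Hsp90ab1 are made in most cells without stress, whereas Hspa1a and Hspa1b are the strongly inducible HSP70 genes. HSF1 is held inactive by chaperones and, when unfolded protein occupies them, forms trimers that bind heat shock elements, which are repeats of GAA units and their inverse TTC. In muscle these proteins also serve the folding of newly made cytoskeletal and contractile protein.

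The sequences of the inducible pair decide how their values can be read, so a stretch in which the copies differ is shown first. The coding sequences of Hspa1a (1923 bases) and Hspa1b (1926 bases) were 99.43% identical in alignment, with 8 substituted and 3 gap columns, and the longest run without a difference was 638 bases. Bases 1357 to 1416 of both coding sequences read as follows on the minus strand of chromosome 17 of GRCm38, at chr17:34970510-34970569 for Hspa1a and chr17:34957592-34957651 for Hspa1b. Capitals mark the 2 substituted bases.
Hspa1a: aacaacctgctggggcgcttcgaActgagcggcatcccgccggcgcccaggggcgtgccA
Hspa1b: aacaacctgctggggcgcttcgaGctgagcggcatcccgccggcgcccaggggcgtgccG
A footprint of about 28 bases fits between most of these differences. Of the 1896 possible 28-base windows of the Hspa1a coding sequence, 1697 were also present in Hspa1b.

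Promoters of the members were searched for paired units of the element that HSF1 reads. Stretches upstream of the annotated start are shown for the 3 members with such a pair there in both the RefSeq and deposited gene models. A pair of facing units was searched as GAANNTTC or TTCNNGAA on the RefSeq windows of GRCm38.p6, which run from 250 bases before to 50 after each start. Both spellings read the same on either strand. A run of 3 units, GAANNTTCNNGAA or its inverse TTCNNGAANNTTC, contains the shorter motif. RefSeq windows matched 6 of the 10 genes. Capitals mark the pair.
Hspa1a: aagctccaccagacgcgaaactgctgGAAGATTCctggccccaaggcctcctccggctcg
Hspa1b: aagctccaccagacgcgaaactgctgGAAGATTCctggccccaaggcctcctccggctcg
Hspb1: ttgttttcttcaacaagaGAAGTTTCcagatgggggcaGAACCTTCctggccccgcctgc
These 60-base stretches lie at chr17:34972227-34972286 (minus strand), chr17:34959309-34959368 (minus) and chr5:135887784-135887843 (plus). The stretches of Hspa1a and Hspa1b, from 130 to 71 bases before the start, had 0 differing positions. In Hspb1 the window held 2 pairs. None of the 3 genes shown had a 3-unit run in its window. In Hsph1, whose stretch is not shown, it held 3 pairs and also a 3-unit run, which began 36 bases after the first of its RefSeq starts and 15 after the other. Neither Hspa4 nor Dnajb1 had a match in its windows. Across all genes with a window, 16.97% had a pair and 0.662% a 3-unit run. A match describes letters and does not show binding.

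**Figure D1:**
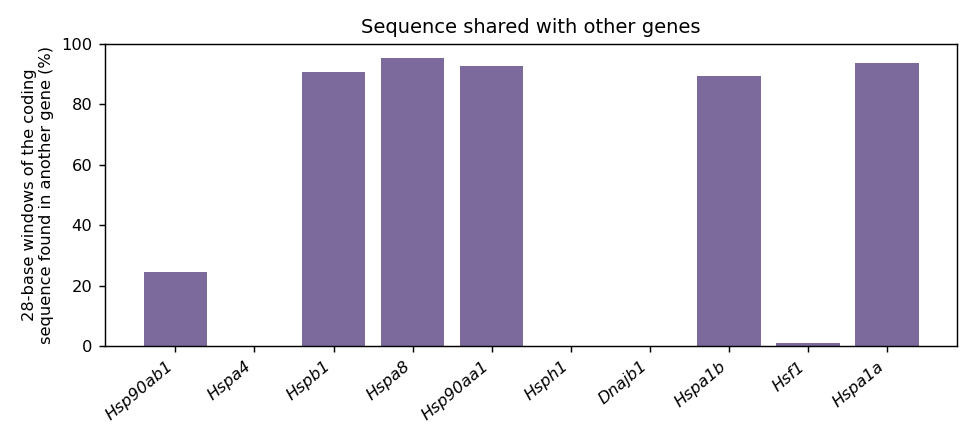
Share of 28-base windows of each coding sequence, in percent, that also occur in a transcript of another gene (bars, 1 per gene, from GENCODE vM21). Hspa8, Hspa1a, Hspa1b, Hsp90aa1 and Hspb1 stand at 89.36% or more, Hsp90ab1 at 24.66%, and Hspa4, Hsph1 and Dnajb1 at 0.

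Sequence sharing went beyond the inducible pair. Hspa8 shared 95.45% of its 28-base windows with other genes, most of them processed copies, of which Gm15459 alone held 92.67%. Hsp90aa1 shared 92.77%, mainly with Gm12346, and Hspb1 shared 90.83% with Hsp25-ps1. The bar plot of shared windows shows that Hspa4, Hsph1 and Dnajb1 had none. Reads assigned to genes outside the 10 were compared with those of the members. All genes outside the 10 that share windows with Hspa8 had 73 reads over the 4 libraries, against 565 at Hspa8. The corresponding counts were 10 against 501 for Hsp90aa1, 58 against 3673 for Hsp90ab1 and 2 against 162 for Hspb1. For Hspa1a and Hspa1b they were 52 against 11 and 27, and 51 of the 52 lay at Hspa2, an HSP70 gene that shares 7 windows with each. How reads that match several genes had been counted was not stated, so the values of Hspa8, Hspa1a, Hspa1b, Hsp90aa1 and Hspb1 carry this uncertainty. The exons of all annotated Hspa8 transcripts, pooled, also cover bases of the small nucleolar RNA genes Snord14c, Snord14d and Snord14e. This does not place these genes in the main Hspa8 mRNA. Of the Hspa1a exon bases, 19.01% lie opposite the antisense gene Gm20481. Strand use in counting was not stated either.

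The libraries held 642429 to 704006 reads assigned to genes. Of these, protein-coding genes took 33.9% and 41.5% in WT and 59.2% and 65.4% in the KO-labelled libraries. Levels are given as RPKM, reads divided by gene length in kilobases and by a size factor of the library. Eif5a, the targeted gene, had 34.9 and 65.2 RPKM in WT and 60.3 and 59.4 RPKM in the KO-labelled libraries, a log2 difference of 0.32 ± 0.48 (SE, adjusted p = 0.839 in limma) that became -0.12 without WT replicate 1. The targeted gene therefore does not separate the groups, and the groups are named here by their labels. The myogenic regulator Myod1 was present in every library (117 to 140 RPKM in WT, 48.6 to 79.8 in the KO-labelled libraries). Over the 9 myoblast markers the summed level was 341 and 305 RPKM in WT and 207 and 233 in the KO-labelled libraries, with 5 of the 9 lower and 1 higher without overlap, where the shares of all tested genes were 20.3% and 20.1%. The 6 fibroblast markers summed to 419 and 238 RPKM against 707 and 304, and the 4 endothelial markers to 108 and 96.1 against 131 and 110. The 8 muscle differentiation markers summed to 310 and 74.5 RPKM in WT against 37.8 and 37.8. All 6 that passed the filter were lower without overlap, but Ckm and Tnnt3, like Myf5 among the myoblast markers, passed only through WT, where they were high. The 4 immune markers summed to 27.9 and 36.5 against 20.6 and 21.7, and the 4 mural cell markers to 118 and 86.9 against 58.03 and 79.83. Without overlap, 2 fibroblast markers were higher and 1 lower, 3 endothelial markers were higher, and 2 immune and 2 mural cell markers were lower. Of the markers Myod1, Pax7, Myog, Col1a1, Pecam1 and Ptprc, taken to define these cell types, the leukocyte gene Ptprc alone was at 0 in any library, in 2 of the 4. The part of these shifts in the results below was not tested, and fewer cells of a type cannot be told apart from less RNA per cell in such bulk samples.

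No heat shock gene differed between the groups at an adjusted p-value under 0.05 in limma (0 of 10, against 0.106% of the 11363 genes tested). At an unadjusted p-value under 0.05, 0 of the 10 were higher in the KO-labelled libraries and 1, Hsf1, was lower, where the corresponding shares of all tested genes were 2.86% and 4.46%. None passed 2-fold together with an unadjusted p-value under 0.05, a criterion met by 6.96% of the tested genes. Both KO-labelled libraries lay above both WT libraries for Hsp90ab1, Hspa4, Hsp90aa1 and Dnajb1, and also for Hspa1a, so 5 of the 10 members, against 20.1% of all genes. Hspa1a is no support for this count, because its WT mean was 0.559 RPKM and it passed the filter of a mean of 1 RPKM only through the KO-labelled libraries (1.74 RPKM). Both lay below for 2, Hspa1b and Hsf1, against 20.3%. All 10 passed the filter. Their median difference, on the scale of log2(RPKM + 1), was 0.41, beside 0.00026 for all tested genes. With 2 libraries against 2, the smallest p-value that an exact permutation test allows is 0.333.

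The median of the members depended on single libraries. Leaving out single libraries moved it to 0.16 without KO-labelled replicate 1, 0.18 without WT replicate 2 and 0.63 without KO-labelled replicate 2. The number of members higher without overlap was 8 without KO-labelled replicate 2, a setting in which the share of all tested genes also went up, to 33.1%. With each library left out in turn, Hsf1 ranged from -1.07 to -0.88, Hspa1b from -1.16 to -0.72, Hsp90aa1 from 0.53 to 0.66 and Hsp90ab1 from 0.35 to 0.63. The ranges were wider for Hspa4 (0.30 without KO-labelled replicate 1, up to 0.86), Dnajb1 (0.16 without WT replicate 1, up to 0.66) and Hspa1a (0.35 without WT replicate 2, up to 1.43).

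**Figure D2:**
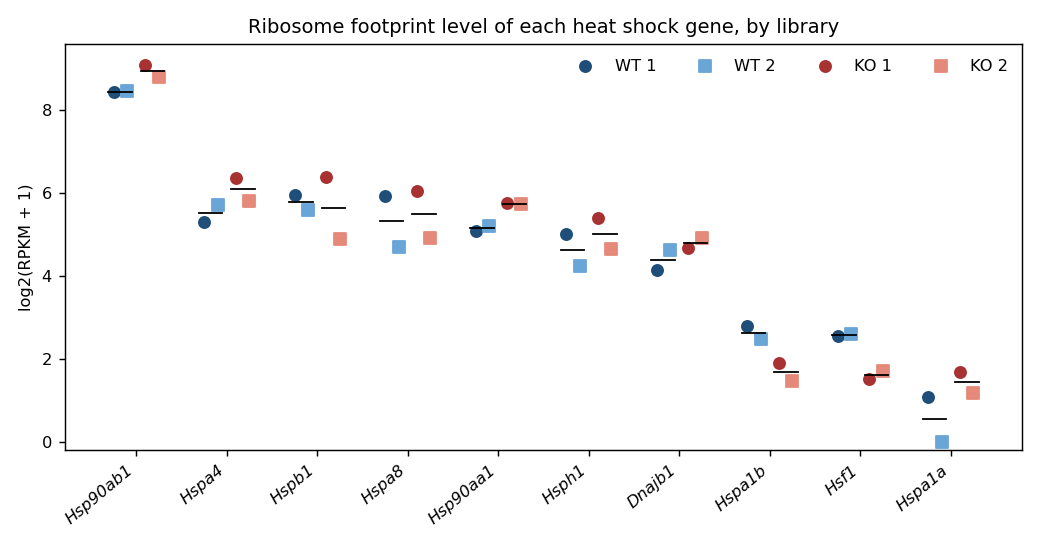
Ribosome footprint level of the 10 heat shock genes in each library, as log2(RPKM + 1) (points, 1 per library; short bars, mean of the 2 libraries of a group), ordered by mean RPKM. Hsp90ab1 lies far above the others in all 4 libraries, and Hspa1b, Hsf1 and Hspa1a lie far below them.

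Among the HSP90 genes, Hsp90ab1 had the highest level of the 10 members. Hsp90ab1, the constitutive HSP90 (ENSMUSG00000023944, chromosome 17, 45567775 to 45573271, minus strand), had 346 and 352 RPKM in WT and 541 and 445 RPKM in the KO-labelled libraries. The WT libraries were close together, and both of the others stood above them. By mean RPKM it ranked 15 of 9877 tested protein-coding genes. The difference was 0.49 ± 0.52 (SE, adjusted p = 0.762 in limma), with a 95% interval from -0.79 to 1.77. Hsp90aa1, the HSP90 that stress induces in many cells (ENSMUSG00000021270, chromosome 12, 110690605 to 110702728, minus strand), had 32.9 and 36.2 RPKM in WT against 53.6 and 52.0. Replicates of this gene differed little and the groups did not overlap. Its difference was 0.60 ± 0.40 (SE), with a limma interval from -0.39 to 1.59 (adjusted p = 0.697).

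The ratio of the paralogs is free of any scaling between libraries. Hsp90ab1 took 88.9% and 88.1% of the reads of the HSP90 pair in WT and 88.5% and 86.7% in the KO-labelled libraries. The 95% Wilson intervals of the 4 shares, which cover counting error alone, all overlapped and reached from 84.7% to 91.0%. The pair thus stood in nearly the same proportion in each library.

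The HSP110 genes had no windows shared with other genes. Hspa4 (ENSMUSG00000020361, chromosome 11, 53259814 to 53300457, minus strand) had 38.7 and 51.5 RPKM in WT and 81.8 and 55.3 RPKM in the KO-labelled libraries. The groups did not overlap, although WT replicate 2 and KO-labelled replicate 2 were close. The difference of 0.58 ± 0.46 (SE, adjusted p = 0.718 in limma) had an interval from -0.54 to 1.70. Hsph1, a heat-inducible HSP110 (ENSMUSG00000029657, chromosome 5, 149614287 to 149636376, minus strand), had 31.3 and 17.8 RPKM in WT and 41.3 and 24.0 RPKM in the KO-labelled libraries. Here the groups overlapped, because the higher WT library exceeded the lower KO-labelled library. The difference was 0.40 ± 0.50 (SE), with an adjusted p-value of 0.800. It became 0.011 without WT replicate 2 and 0.022 without KO-labelled replicate 1, and 0.79 and 0.78 with the other replicates left out.

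Among the HSP70 chaperones, Hspa8, the constitutive cytosolic HSP70 also called HSC70 (ENSMUSG00000015656, chromosome 9, 40800984 to 40810087, plus strand), varied more within groups than between them. Its values were 59.8 and 25.2 RPKM in WT and 65.9 and 29.4 RPKM in the KO-labelled libraries. The higher library of each group had more than the lower one by 1.22 (WT) and 1.14 (KO) on the log2 scale, whereas the difference between groups was 0.18 ± 0.63 (SE, adjusted p = 0.939 in limma). The sign of this difference turned to -0.43 without WT replicate 2 and to -0.39 without KO-labelled replicate 1.

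Against Hspa4, an HSP70 relative, the variation of Hspa8 was also visible within libraries. Hspa8 made up 54.6% and 27.6% of the reads of the 2 genes in WT, and 38.5% and 29.2% in the KO-labelled libraries. The share in WT replicate 1 had a Wilson interval from 48.8% to 60.3%, which lay above the intervals of the other libraries. Those of WT replicate 2 (21.6% to 34.4%) and KO-labelled replicate 2 (24.7% to 34.2%) overlapped.

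The inducible HSP70 genes were covered by few reads. Hspa1b (ENSMUSG00000090877, chromosome 17, 34956436 to 34959238, minus strand) was covered by 10 and 6 WT reads, against 7 and 4 in the KO-labelled libraries. These were 5.92 and 4.54 RPKM against 2.75 and 1.77 RPKM, without overlap. Its difference was -0.94 ± 0.40 (SE, adjusted p = 0.675 in limma), with an interval from -1.92 to 0.035. Hspa1a (ENSMUSG00000091971, chromosome 17, 34969190 to 34972156, minus strand) was covered by 2 and 0 WT reads, against 6 and 3 in the KO-labelled libraries, or 1.12, 0, 2.23 and 1.25 RPKM.

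For Hspa1a, 3 reads, taken as the limit that a count of 0 allows, were equal to 2.15 RPKM in WT replicate 2. The pooled ratio of the groups, 2.82, had an exact counting interval from 0.583 to 26.8, so no difference was detectable at this depth. The fitted value of 0.89 ± 0.75 (SE) had an adjusted p-value of 0.724. It depended on the scale, at 2.35 with a pseudocount of 0.1 in place of 1 and 1.40 with voom. Because the copies share most windows, their reads were also added. The sum differed by -0.44 ± 0.42 (SE, adjusted p = 0.735 in limma). With each library left out in turn it went from -0.73 (without KO-labelled replicate 1) to -0.16 (without KO-labelled replicate 2). The sign turned when the trend on GC content and length was removed (0.057). Opposite signs of the single genes are therefore not read as a difference between them.

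The small heat shock protein Hspb1, also known as HSP25 or HSP27 (ENSMUSG00000004951, chromosome 5, 135887919 to 135889563, plus strand), had the largest ratio of the 10 between the KO-labelled replicates. It had 61.1 and 47.4 RPKM in WT and 82.3 and 28.8 RPKM in the KO-labelled libraries, so that the WT values lay between the other 2. The difference of -0.14 ± 0.60 (SE, adjusted p = 0.953 in limma) turned positive without WT replicate 1 (0.044) and without KO-labelled replicate 2 (0.60).

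Dnajb1, the J-domain partner of inducible HSP70 (ENSMUSG00000005483, chromosome 8, 83608193 to 83612653, plus strand), had 16.6 and 23.8 RPKM in WT and 24.4 and 29.4 RPKM in the KO-labelled libraries. The groups did not overlap, but the higher WT library and the lower KO-labelled library were almost level. The difference was 0.41 ± 0.41 (SE, adjusted p = 0.750 in limma), with an interval from -0.61 to 1.43.

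Hsf1, the transcription factor of the heat shock response (ENSMUSG00000022556, chromosome 15, 76477422 to 76501913, plus strand), had 4.91 and 5.08 RPKM in WT and 1.86 and 2.27 RPKM in the KO-labelled libraries. In reads these were 21 and 17 against 12 and 13. Both groups were tight and well apart. The difference was -0.97 ± 0.37 (SE), with an interval from -1.89 to -0.054 and an unadjusted p-value of 0.0413 in limma. The adjusted p-value was 0.672 and ranged from 0.375 to 0.944 over the alternatives, and the unadjusted one was not under 0.05 when any single library was left out.

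Hsf2, a related factor active in development, is given because Hsf1 stood apart, and was chosen after its values were seen. Its reads numbered 2 and 8 in WT, against 26 and 31 in the KO-labelled libraries, a difference of 1.21 ± 0.55 (SE, adjusted p = 0.676 in limma). This was 0.69 without WT replicate 1 and 1.73 without WT replicate 2. With a pseudocount of 0.1 it was 1.96, and with voom 2.09 (unadjusted p = 0.0108, adjusted p = 0.300 in limma). Hsf1 made up 91.3% and 68.0% of the reads of both factors in WT, with Wilson intervals from 73.2% to 97.6% and from 48.4% to 82.8%. In the KO-labelled libraries it made up 31.6% (19.1% to 47.5%) and 29.5% (18.2% to 44.2%). The WT intervals lay above those of the KO-labelled libraries. The coding sequence of Hsf1 is 58.3% GC and that of Hsf2 42.6%, and with the trend on GC content and length removed the differences were -0.74 and 0.88.

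**Figure D3:**
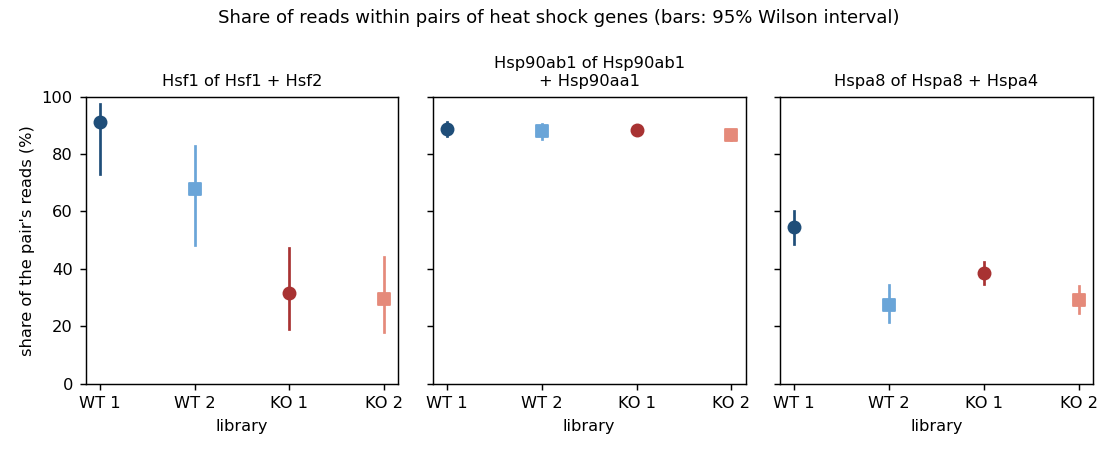
Share of reads, in percent, that one gene takes within a pair, for each library (points, with 95% Wilson intervals as bars). Hsf1 takes 91.3% and 68.0% of the Hsf1 and Hsf2 reads in WT and 31.6% and 29.5% in the KO-labelled libraries, the HSP90 pair stands at 86.7% to 88.9% in all libraries, and Hspa8 against Hspa4 is highest in WT replicate 1.

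Levels were also ordered per length, as reads per kilobase of coding sequence per 1000000 protein-coding reads, since RPKM divides by the whole gene with its untranslated ends. On this scale Hsp90ab1 averaged 1221, and it exceeded the next gene, Hspa4 with 260, in all 4 libraries. Below it, Hspa4, Hspa8 (211), Hspb1 (190), Hsph1 (170), Hsp90aa1 (164) and Dnajb1 (156) formed a run in which no neighbours kept the same order in all 4 libraries. Hsf1 (33.9), Hspa1b (11.7) and Hspa1a (3.67) came last. The steps down from Dnajb1 to Hsf1 and from Hsf1 to Hspa1b were seen in all 4 libraries. Hspa1b also stood above Hspa1a in all 4, but by 7 against 6 and 4 against 3 reads in the KO-labelled libraries. Because the copies share most windows, the order of these 2 genes is not settled.

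All members together took 0.456% and 0.410% of the protein-coding reads in WT and 0.603% and 0.481% in the KO-labelled libraries. Their Wilson intervals were 0.431% to 0.482% and 0.384% to 0.438% in WT, and 0.581% to 0.626% and 0.460% to 0.504% in the KO-labelled libraries. Means were 0.433% ± 0.032 (SD, n = 2) for WT and 0.542% ± 0.086 (SD, n = 2) for KO, and the groups did not overlap, although the interval of WT replicate 1 overlapped that of KO-labelled replicate 2. Within this pool Hsp90ab1 supplied 50.9% to 58.2% of reads in every library. Hspa1b supplied 0.815% and 0.672% in WT against 0.252% and 0.216%, and Hsf1 stood at 1.71% and 1.90% in WT against 0.433% and 0.701%.

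Base composition varied with the direction of the members. The coding sequences of Hsp90ab1, Hspa4, Hsp90aa1, Hsph1, Hspa8 and Dnajb1, all with positive differences, had 43.4% to 54.0% GC. Those of Hsf1, Hspb1 and Hspa1b, with negative differences, had 58.3% to 65.3%, while Hspa1a at 65.0% had a positive difference. Once each library had been detrended on GC content and coding length, the median of the 10 was 0.28. Hspa4 went to 0.33, Hsp90aa1 to 0.32, Hsph1 from 0.40 to 0.18 and Hspa1b to -0.44. The targeted gene Eif5a went from 0.32 to 0.031. Hspa8 then stood at -0.023 and Hspb1 at 0.24, while Hspa1a went up from 0.89 to 1.38 (adjusted p = 0.697 in limma).

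Scaling moved all members together. When libraries were scaled to total reads the median of all genes was 0.47, and that of the members was 1.00. Hspa4, Hsp90aa1 and Dnajb1 then had an unadjusted p-value under 0.05, with differences of 1.19, 1.20 and 1.00, as did 14.8% of all tested genes in that direction, though the smallest adjusted p-value in limma was 0.289.

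**Figure D4:**
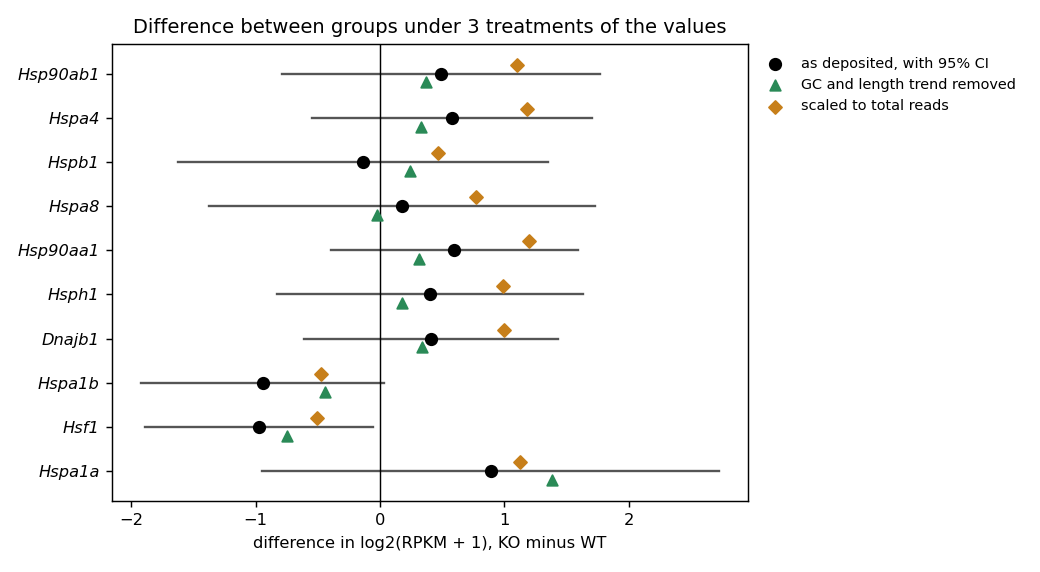
Difference between the KO-labelled libraries and WT in log2(RPKM + 1) for each gene, from the deposited values (black points with 95% limma intervals), with the trend on GC content and length removed (green triangles) and scaled to total reads (orange diamonds). The interval of Hsf1 alone excludes 0, and the scaling to total reads carries the median of all genes to 0.47.

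eIF5A helps ribosomes past stretches of consecutive prolines, so the proline codons of the members were counted. The longest run was 2 in each of the 10, and 0 of 10 had a run of 3 or more. Such a run was present in 25.8% of the 9869 tested coding genes with a coding sequence.

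The wider chaperone network gave a mixed picture. In 7 lists of chaperones and cofactors, 61 of 72 genes passed the filter, with a median difference of 0.22. Of the 61, 21 were higher in the KO-labelled libraries without overlap and 7 lower, where the shares of all tested genes were 20.1% and 20.3%. Of the 21, Hspa12a passed the filter only through the KO-labelled libraries and is no support for the count. No gene had an adjusted p-value under 0.05 in limma, the smallest being 0.665, and 4 had an unadjusted p-value under 0.05, all higher, against 2.86% of all tested genes in that direction. None of these 4 kept an unadjusted p-value under 0.05 without KO-labelled replicate 1 or without KO-labelled replicate 2. The medians were 0.35 for 11 J-domain proteins, 0.31 for 21 HSP90 cochaperones, 0.25 for 9 mitochondrial chaperones, 0.20 for 5 other cytosolic HSP70 genes, -0.052 for 9 exchange factors and adaptors, and -0.16 for 4 other small heat shock proteins. These medians depended on single libraries. With each library left out in turn, the J-domain median went from 0.15 (without WT replicate 1) to 0.42 (without KO-labelled replicate 1). That of the HSP90 cochaperones was lower each time, at 0.042 without KO-labelled replicate 1, 0.079 without WT replicate 1, 0.19 without KO-labelled replicate 2 and 0.29 without WT replicate 2. The other cytosolic HSP70 genes went from 0.086 (without KO-labelled replicate 1) to 0.38 (without WT replicate 2), and the mitochondrial chaperones from 0.19 (without WT replicate 1) to 0.52 (without WT replicate 2). The exchange factors and adaptors turned from -0.18 (without WT replicate 1) to 0.11 (without WT replicate 2), and the other small heat shock proteins went from -0.18 (without WT replicate 1) to -0.021 (without KO-labelled replicate 1). After detrending on GC and length the J-domain median was 0.14, that of the HSP90 cochaperones 0.064 and that of the other small heat shock proteins 0.034. In the list of other heat shock factors and their binding protein, 2 of 4 genes passed the filter.

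The 4 genes were partners of the HSP70 and HSP90 members. Dnajc7, a J-domain protein that binds both chaperones, had 6.82 and 6.55 RPKM in WT and 15.4 and 15.3 RPKM in the KO-labelled libraries, a difference of 1.09 ± 0.36 (SE). Ppid, a cyclophilin cochaperone of HSP90, had 6.08 and 5.49 against 13.3 and 12.5 RPKM (1.04 ± 0.36, or 0.67 after detrending on GC and length). In both genes the replicates were close and the groups well apart. Ttc4, an HSP90 cochaperone (1.13 ± 0.39), and Dnaja4, a J-domain protein (1.18 ± 0.44), had 2 to 5 reads per library in WT and 12 to 20 in the KO-labelled libraries. Among genes of these lists with a mean of at least 5 RPKM, the other 3 of the 5 largest positive differences without overlap belonged to mitochondrial chaperones: Hspe1 (1.32 ± 0.62) and Hspd1 (0.93 ± 0.48), which form the mitochondrial chaperonin, and Hspa9 (0.84 ± 0.44), the mitochondrial HSP70. Hspe1 went to 0.59 without WT replicate 1 and to 2.06 without WT replicate 2, and Hspd1 to 0.58 without KO-labelled replicate 1.

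On the lower side 3 genes met the rule. Bag1, a nucleotide exchange factor of HSP70, had 38.1 and 26.7 RPKM in WT against 21.3 and 17.4 RPKM (-0.70 ± 0.42). Stub1, the ubiquitin ligase CHIP that acts on HSP70 and HSP90 clients, differed by -0.41 ± 0.41, and Sgta, a cochaperone of HSP70, by -0.19 ± 0.39. Without KO-labelled replicate 1 Stub1 stood at -0.052, and without KO-labelled replicate 2 at -0.77. Without WT replicate 1 Sgta stood at -0.073 and Bag1 at -0.45, and without WT replicate 2 at -0.31 and -0.95.

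Other folding systems are given by their counts, beside the same 20.1% and 20.3% of all tested genes without overlap. Of the 8 subunits of CCT, the cytosolic chaperonin that folds actin and tubulin, 7 were higher without overlap and the median was 0.90, which became 0.34 without WT replicate 1 and 1.46 without WT replicate 2. Of 15 ER chaperones, 8 were higher and 1 lower without overlap, with a median of 0.74 that became 0.14 without KO-labelled replicate 1 and 1.28 without KO-labelled replicate 2. The immediate early genes, which respond to handling as well as to growth factors, had 2 genes higher and 4 lower without overlap, of 14, and a median of -0.087. Its sign turned without WT replicate 1 (0.11) and after detrending on GC and length (0.24), and it was -0.26 without WT replicate 2. On the deposited values none of the genes of these lists had an unadjusted p-value under 0.05 in limma. With voom on recovered reads Cct3, Cct8, Hspa5, Pdia3, Dnajb11 and Jund did, where 3.74% of all tested genes were higher and 7.31% lower. The CCT and ER genes among these were higher. With total reads all 8 CCT subunits and some ER chaperones were higher at that threshold, as were 14.8% of all tested genes. Creld2 was higher with the GC and length trend removed (3.5% of all genes), and Sdf2l1 was lower with protein-coding reads (5.37%).

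**Figure D5:**
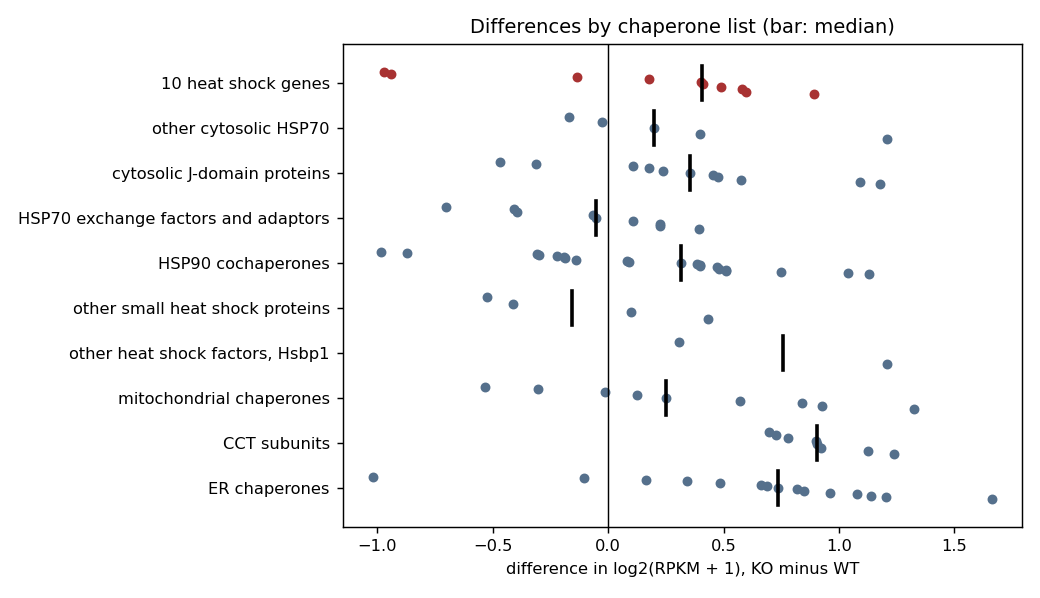
Difference in log2(RPKM + 1) between the KO-labelled libraries and WT for genes of each chaperone list (points, 1 per tested gene; vertical bars, medians). The 10 heat shock genes have a median of 0.41, against 0.90 for CCT subunits, 0.74 for ER chaperones and -0.16 for other small heat shock proteins, medians that move with single libraries.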

How the data were processed

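Ribo-seq was performed on 4 libraries, 2 labelled WT and 2 labelled KO. The authors aligned reads with TopHat2 to mm10, counted them per gene of Ensembl models with HTSeq, and deposited RPKM values. Multiplying by gene length recovered whole reads for 100% of the values, within a tolerance of 0.05, and showed that each library had been scaled to its median-of-ratios size factor. Such scaling hides any shift common to most genes.

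The test was limma 3.58.1 (R 4.3.3, mean-variance trend) on log2(RPKM + 1) for 11363 genes whose mean RPKM was 1 or more, two-sided, with Benjamini-Hochberg adjustment over all of them. This scale understates changes of low genes. The script was tested on simulated data. Alternatives changed the pseudocount, filter, scaling, replicate block, GC and length trend, gene class and libraries, and added voom on recovered reads. The GC trend was a spline per library. Shares carry 95% Wilson intervals, and intervals and the floor of 3 reads cover counting error only, since reads have no molecular identifiers. Shared windows, coding lengths and proline runs came from GENCODE vM21, and promoters from RefSeq.

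Named genes were the members, Eif5a and, in 7 chaperone lists, up to 5 of the largest differences in each direction with a mean RPKM of at least 5 and no overlap, plus genes with an unadjusted p-value under 0.05. Members and lists were chosen with earlier results of these data known. Other columns of the table gave gene position, length and class.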

Additional observations from a re-analysis of the deposited data

How the results depend on the processing

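No member passed an adjusted p-value under 0.05 in any of the 14 alternatives, and Hspa4, Hsp90aa1, Hsp90ab1, Hsph1, Dnajb1, Hsf1, Hspa1a and Hspa1b kept their direction wherever they were tested (14 alternatives, 13 for the last 3, which a mean RPKM of at least 5 removes).

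Total reads gave 3 members with an unadjusted p-value under 0.05, all higher and past 2-fold, against 14.8% of all genes higher. That setting left 1 member lower without overlap, against 7.87% of all genes, and a median of 1.00. Differences were positive there for Hspb1 (0.466), Stub1 (0.11), Sgta (0.39) and the summed Hspa1a and Hspa1b (0.054). All 4 lay below the median of all genes there, 0.469. Protein-coding reads gave 2 members with an unadjusted p-value under 0.05, Hspa1b and Hsf1, both lower and past 2-fold, against 5.37% of all genes lower. Removing the GC and length trend gave 0 members with an unadjusted p-value under 0.05, against 3.5% of all genes higher and 3.81% lower. It turned the sign of Hspa8 (-0.023), Hspb1 (0.24), Sgta (0.064) and the sum (0.057). With the replicate block added these 4 values were the same. In that setting 1 member, Hspa1a (1.38), was higher past 2-fold with an unadjusted p-value under 0.05, against 3.96% of all genes higher. The replicate block alone gave 0 members with an unadjusted p-value under 0.05. So did no filter, a mean RPKM of at least 5 (0 lower without overlap, against 21.4% of all genes) and protein-coding genes alone. In these settings 2.13% to 4.23% of all genes were higher and 2.81% to 5.93% lower at that threshold. The block also put the ER chaperones Dnajb11 and Dnajb9, both higher, under that threshold, against 2.8% of all genes higher with the block. On the deposited values 0 genes of the CCT, ER and immediate early lists passed it. A pseudocount of 0.1 and voom each put 1 member, Hsf1, lower past 2-fold with an unadjusted p-value under 0.05. At that p-value 4.36% and 7.31% of all genes were lower in these settings. The labels tie the replicate numbers to no batch, so whether the numbers pair the samples is not known. The replicate differences of the groups correlated at r = 0.119 over 6500 genes, a value that cannot decide this.

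Leaving out 1 library at a time gave 5 to 8 members higher and 2 to 3 lower without overlap (31.7% to 35.9% and 30.4% to 39.4% of all genes). The medians were 0.16 to 0.63. Hspa8 ranged from -0.43 to 0.78, Hspb1 from -0.88 to 0.60, Eif5a from -0.12 to 0.76. The causes were not tested. Over all genes, 12 passed the adjusted threshold, also 12 with protein-coding reads, 79 with voom and 0 in the other alternatives, and 832 had an unadjusted p-value under 0.05 (430 to 1854 in the alternatives). With 11 to 63 reads over the 4 libraries for Hspa1a, Hspa1b and Hsf1, counting error limits what can be seen.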
